A study of Rattus norvegicus with 7 samples.

Results

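The hypothalamus governs the anterior pituitary through a small set of peptides, and the genes for these peptides are described here together with the partners of corticotropin-releasing hormone. The 10 genes were chosen by symbol: Trh, Ghrh, Gnrh1, Kiss1, Sst, Adcyap1, Crh, Crhbp, Crhr1 and Crhr2. All 10 were found at 1 locus in each of the 2 deposited tables, among 16223 symbols in hippocampus and 16183 in hypothalamus. RNA was sequenced from hippocampus (4 libraries) and hypothalamus (3 libraries) of male Sprague Dawley rats, an outbred albino strain, with no genetic modification named in the labels. The rats entered the diet at 2 months of age and for 6 weeks ate food enriched in DHA, the omega-3 fat docosahexaenoic acid. Both groups shared the diet, so tissue was the only labelled difference between them, and chow-fed rats were not analysed here. The labels do not say whether hippocampus and hypothalamus libraries with the same number came from the same rat, or whether each library is 1 rat.

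Neurosecretory cells of the paraventricular, periventricular, arcuate and preoptic areas send their axons to the median eminence, where the peptides enter portal vessels that run to the pituitary. Thyrotropin-releasing hormone (Trh), growth hormone-releasing hormone (Ghrh), gonadotropin-releasing hormone (Gnrh1) and corticotropin-releasing hormone (Crh) each stimulate a pituitary cell type, somatostatin (Sst) inhibits growth hormone release, and kisspeptin (Kiss1) acts on the gonadotropin-releasing neurons. In hippocampus, somatostatin is known as a product of GABA-releasing interneurons, and corticotropin-releasing hormone as a local stress signal whose action is limited by a binding protein (Crhbp) and carried by the receptors Crhr1 and Crhr2.

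Levels are given as FPKM, fragments per kilobase of transcript and per 1000000 fragments, as deposited. FPKM is corrected for transcript length, so levels of different genes in a library are set side by side here. An order of genes holds only as far as each locus was measured well, which is in doubt for some. In hippocampus Gapdh read 4.03 to 8.73 FPKM beside 1450 to 1583 FPKM for Actb, both genes that every cell uses. Each tissue came from its own table with its own normalization, so no test was made between tissues, and tissue and table cannot be told apart. For a difference between tissues, FPKM were first multiplied so that the 15805 shared symbols summed to 1000000 in each library, and the difference was taken on the log2(rescaled FPKM + 1) scale, which understates the change of low genes. Called higher means that the lowest library of one tissue exceeded the highest of the other and that the difference reached 2-fold. In bulk tissue, fewer cells of a type and less RNA per cell cannot be told apart.

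The tissues carried their defining markers. The 12 hypothalamic marker genes summed to between 6018 and 8560 FPKM in hypothalamus and between 8.31 and 12.7 FPKM in hippocampus, where Oxt, Otp and Nr5a1 were listed at 0 in every library. The 5 markers of hippocampal principal cells summed to between 946 and 1366 FPKM in hippocampus and between 18.8 and 24.998 FPKM in hypothalamus. Replicate 1 stood apart in both tissues when all loci averaging 1 FPKM or more were used: Pearson r of log2(FPKM + 1) was 0.827 to 0.890 for hippocampus pairs with replicate 1 and 0.944 to 0.966 for the others, and 0.897 and 0.905 against 0.971 in hypothalamus. Over symbols with 1 locus, as all 10 genes are, pairs with replicate 1 reached 0.940 to 0.967 in hippocampus, overlapping the 0.962 to 0.975 of the others, and 0.950 and 0.956 against 0.973 in hypothalamus. Hprt1, a purine salvage enzyme gene that every cell uses, was at most 0.0403 FPKM in hypothalamus, so a gene listed at 0 is given as listed at 0 and not as absent. Gapdh, a glycolytic enzyme gene of every cell with 1 locus per table, lay between 4.03 and 8.73 FPKM in hippocampus and between 418 and 787 FPKM in hypothalamus.

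Of the 10 genes, 6 were called higher in hypothalamus (Trh, Ghrh, Gnrh1, Kiss1, Adcyap1 and Crh), where 13.4% of the 10736 compared symbols were called in that direction. Crhbp was called higher in hippocampus, against 14.5% of all compared symbols. Without the 2-fold requirement, 7 of the 10 had all hypothalamus libraries on top and 2 had all hippocampus libraries on top, beside 24.4% and 28.2% of all compared symbols, and Crhr2 overlapped. A symbol was compared when its mean reached 1 FPKM in a tissue. Ghrh, Gnrh1, Kiss1 and Crh passed this filter in hypothalamus only, so these 4 had to be higher there, and the other 6 passed in both tissues. With replicate 1 left out of both tissues the same 6 genes were called higher in hypothalamus, Crhr2 joined them, and Crhbp was no longer called.

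**Figure D1:**
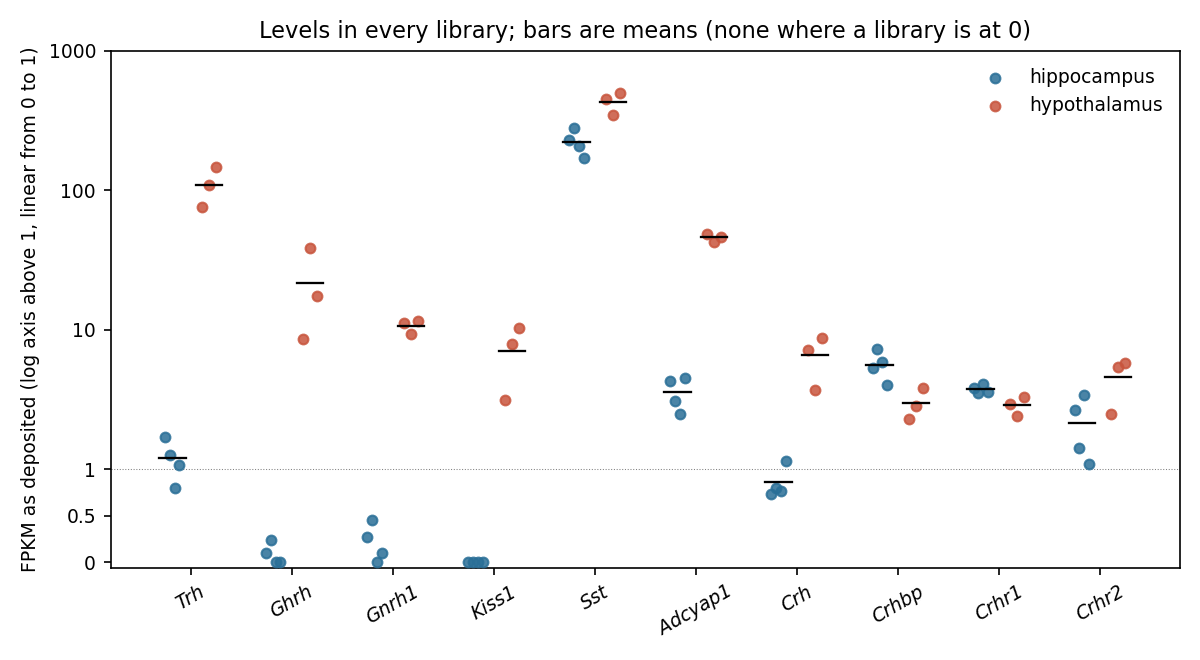
FPKM as deposited of the 10 genes in each of the 4 hippocampus and 3 hypothalamus libraries (points), on an axis that is linear from 0 to 1 and logarithmic above, with bars at the means of groups without a 0. Sst is the highest gene in both tissues, Trh lies between 75.5 and 145 FPKM in hypothalamus and below 2 in hippocampus, and Crhbp and Crhr1 are the genes whose hippocampus points all lie above the hypothalamus points.

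Trh, whose product drives thyrotropin release, showed the largest difference of the 9 genes with a computable one at a pseudocount of 1. With a pseudocount of 0.1 that of Ghrh was larger, at 7.50 against 6.17 for Trh. It read 75.5, 108 and 145 FPKM in hypothalamus replicates 1 to 3 and 1.70, 1.26, 0.792 and 1.08 FPKM in hippocampus replicates 1 to 4. The groups were far apart, the lowest hypothalamus library being 36.4 times the highest hippocampus library after rescaling. The difference was 5.83 on the log2 scale, with an SD among libraries of 0.43 in hypothalamus (n = 3) and 0.35 in hippocampus (n = 4), and it exceeded that of 99.8% of compared symbols. Over the settings it ran from 4.91, with a pseudocount of 5, to 6.21. Within the libraries, Trh ranked between place 554 and 1089 of 16163 symbols in hypothalamus and between place 9541 and 10619 of 16153 in hippocampus.

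Promoter sequence was available from RefSeq (assembly GRCr8) for 8 of the 10 genes, as the 250 bases before and 50 bases after an annotated start. The set of promoters used held no entry for Crh and Gnrh1, which does not mean that RefSeq lacks these genes. Thyrotropin-releasing hormone and somatostatin genes are textbook targets of cyclic AMP signalling, so the windows were searched on both strands for the cyclic AMP response element TGACGTCA, for its TGACG core, which also lies within it, and for TGACCTCA, a related sequence known from the Trh promoter that was added after the sequences were seen. The 250 bases before the Trh start, chr4:126301763-126302012 on the minus strand, hold TGACCTCA at −35 to −28 and the core, read on the opposite strand as CGTCA, at −74 to −70, both in capitals.
Trh: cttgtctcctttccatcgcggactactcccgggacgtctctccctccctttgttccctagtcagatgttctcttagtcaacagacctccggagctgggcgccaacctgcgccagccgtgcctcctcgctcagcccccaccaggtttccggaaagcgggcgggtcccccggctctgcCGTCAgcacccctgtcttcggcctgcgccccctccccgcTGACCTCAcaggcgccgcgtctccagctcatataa
TGACCTCA was found in 2.66% of the 33469 promoters of the table and, among these genes, in Trh alone.

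The full element was found in the Sst promoter only among the 8, at positions 3 to 10 counted from the annotated start, and in 1.83% of all promoters. The core was found in 5 of the 8 (Sst, Trh, Kiss1, Crhbp and Crhr2) and in 21.2% of all promoters. The 30 bases around each match are shown on the strand of the gene, with the match in capitals, to show each match in its surroundings.
Sst: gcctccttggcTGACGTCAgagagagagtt
Kiss1: ttatgctgggataCGTCAcccatccagact
Crhbp: agagctggaccctCGTCAtcgccacgcatt
Crhr2: ccagaccgtagatCGTCAgccctgccacca
These windows lie at chr11:90461537-90461566 (plus strand), chr13:47327097-47327126 (plus), chr2:28439530-28439559 (minus) and chr4:85581552-85581581 (minus), in that order. Genes with the core were found on both sides of the tissue comparison, and no binding was measured.

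Ghrh, made by arcuate neurons, was the member that varied most among hypothalamus libraries. It read 8.60, 38.5 and 17.5 FPKM there, a 4.48-fold spread with a mean of 21.5 ± 15.4 FPKM (SD, n = 3). In hippocampus it read 0.0949 and 0.241 FPKM in replicates 1 and 2 and was listed at 0 in replicates 3 and 4. The groups did not overlap. The log2 difference of 5.16 depended on the pseudocount, since hippocampus was so close to 0, and ran from 3.19 with 5 to 7.50 with 0.1. Replicate 2, the highest, was also the highest for the pituitary genes Cga (70.4, 282 and 183 FPKM) and Tshb (3.64, 15.2 and 5.27 FPKM), but Lhb was highest in replicate 3 (2.46, 8.71 and 19.1 FPKM) and Pou1f1 was lowest in replicate 2 (25.2, 17.7 and 18.3 FPKM). Their part in the Ghrh values was not tested.

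Gnrh1 differed little among the hypothalamus libraries. It read 11.1, 9.26 and 11.6 FPKM, a mean of 10.6 ± 1.22 FPKM (SD, n = 3). Hippocampus replicates read 0.273, 0.453, 0 and 0.101 FPKM, so no library of either tissue came near the other. The log2 difference was 4.09 and ran from 2.42 to 5.73 over the settings, again with the pseudocounts of 5 and 0.1 at the ends. Gonadotropin-releasing neurons are few and scattered through the preoptic region in the rat, and the gene ranked between place 5610 and 6334 in the hypothalamus libraries.

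Kiss1 was listed at 0 in all 4 hippocampus libraries, so no fold is given. In hypothalamus it read 3.12, 7.86 and 10.3 FPKM, a mean of 7.08 ± 3.64 FPKM (SD, n = 3). Replicate 1 was low, as it was for Ghrh and Trh. Set against Gnrh1 in the same library, Kiss1 stood at 0.281, 0.849 and 0.888 times its level, and below it in each of the 3 libraries.

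Sst was the highest of the 10 genes in both tissues and ranked between place 117 and 163 in hypothalamus and between place 173 and 314 in hippocampus. It read 449, 345 and 501 FPKM in hypothalamus and 231, 281, 207 and 170 FPKM in hippocampus. The groups did not overlap, but the lowest hypothalamus library was only 1.04 times the highest hippocampus library after rescaling. The log2 difference was 0.67 (SD among libraries 0.24 and 0.29), under 2-fold, and exceeded that of 76.8% of compared symbols. When libraries were rescaled over symbols with 1 locus only, the groups overlapped. The 7 interneuron markers did not move together. Gad2 and Calb2 were called higher in hypothalamus, and Gad1 and Slc32a1 were separated that way by under 2-fold. Vip was separated towards hippocampus by under 2-fold after rescaling, but overlapped as deposited, at 8.55 to 9.42 against 4.99 to 9.71 FPKM. Pvalb and Lhx6 overlapped. Gad1, a GABA-synthesizing enzyme, read 58.9 to 75.2 FPKM in hippocampus and 110.1 to 155.9 FPKM in hypothalamus, and Lhx6, a factor of Sst and Pvalb interneurons, read 2.28 to 2.75 and 0.707 to 4.45 FPKM. Summed over the 7 markers, the level was 178 to 225 FPKM in hippocampus and 554 to 606 FPKM in hypothalamus. Their part in the Sst difference was not tested.

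Adcyap1 encodes PACAP, a peptide named for raising cyclic AMP in pituitary cells and also a transmitter in the brain. It read 48.2, 42.7 and 46.5 FPKM in hypothalamus, the tightest set of the 10 genes there with a coefficient of variation of 6.19%. In hippocampus it read 4.28, 3.10, 2.50 and 4.49 FPKM. The groups were well separated, at 7.90 times between the nearest libraries after rescaling, and the log2 difference was 3.29 (SD 0.09 in hypothalamus and 0.36 in hippocampus). Its receptor gene Adcyap1r1 was high in both tissues, at 45.5 to 53.6 FPKM in hippocampus and 73.5 to 76.7 FPKM in hypothalamus, with a difference of 0.33. The peptide gene thus stood at 0.581 to 0.629 times the receptor gene in hypothalamus and at 0.0516 to 0.0947 times in hippocampus.

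Crh read 7.13, 3.71 and 8.75 FPKM in hypothalamus and 0.731, 0.798, 0.769 and 1.14 FPKM in hippocampus. Every hypothalamus library was higher, and the nearest libraries differed 2.72-fold after rescaling. The log2 difference was 2.16 (SD 0.57 in hypothalamus and 0.21 in hippocampus), larger than that of 96.5% of compared symbols. It ran from 1.39 with a pseudocount of 5 to 2.52 with 0.1, and the call held in each setting. Hypothalamus replicate 2 was the low one. That library was also lowest for 4 of the 12 hypothalamic markers, the peptide genes Oxt, Pmch, Hcrt and Cartpt. It was the highest for Avp, which like Crh and Oxt is a paraventricular peptide gene (2818, 3712 and 3229 FPKM), and for Pomc, and it was in the middle for the paraventricular factors Otp and Sim1. The part of these in the Crh values was not tested.

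Among the partners of Crh, Crhbp and Crhr1 lay higher in every hippocampus library, and Crhr2 overlapped. Crhbp, the secreted protein that binds the hormone, read 5.31, 7.24, 5.86 and 3.997 FPKM in hippocampus and 2.29, 2.82 and 3.84 FPKM in hypothalamus. All 4 hippocampus libraries were higher, but the closest libraries were only 1.32-fold apart after rescaling. The difference was −1.10 (SD 0.33 in hippocampus and 0.29 in hypothalamus), just past 2-fold. It ran from −1.25 to −0.72 over the settings, so the direction held in each, but the 2-fold call was lost with FPKM as deposited, with upper-quartile or median-of-ratios scaling, with a pseudocount of 5, without hippocampus replicate 2, and without hypothalamus replicate 1.

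Crhr1, the main receptor for the hormone in forebrain and pituitary, varied least in hippocampus among the genes detected in all libraries. It read 3.85, 3.51, 4.05 and 3.58 FPKM there, with a coefficient of variation of 6.69%, and 2.91, 2.40 and 3.32 FPKM in hypothalamus. Hippocampus was higher in every library by a small margin, with a difference of −0.62 (SD 0.11 and 0.17) that ranged from −0.73 to −0.30 over the settings. Crhr2, which binds urocortins more strongly than Crh, read 2.66, 1.41, 3.42 and 1.09 FPKM in hippocampus and 2.48, 5.44 and 5.74 FPKM in hypothalamus. The groups overlapped through hypothalamus replicate 1. The difference was 0.73 (SD 0.66 and 0.59), and 1.20 with replicate 1 left out of both tissues, where the libraries no longer overlapped.

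Crhr2 is known from choroid plexus as well as neurons, and the choroid plexus content of the hippocampus libraries was uneven. The summed level of the 9 choroid plexus markers found there was 4768, 35.8, 6001 and 2111 FPKM in replicates 1 to 4, with Otx2 listed at 0 in each, and 24.97 to 60.7 FPKM over the 10 found in hypothalamus. Most of each hippocampus sum was Ttr, and 6 of the 8 markers above 0 were higher in replicate 4 than in replicate 1. Crhr2 was highest in replicates 3 and 1 and lowest in replicate 4, below replicate 2, which had the least of the summed markers. All 8 of these markers that could be compared overlapped between the tissues. Their part in the Crhr2 values was not tested.

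**Figure D2:**
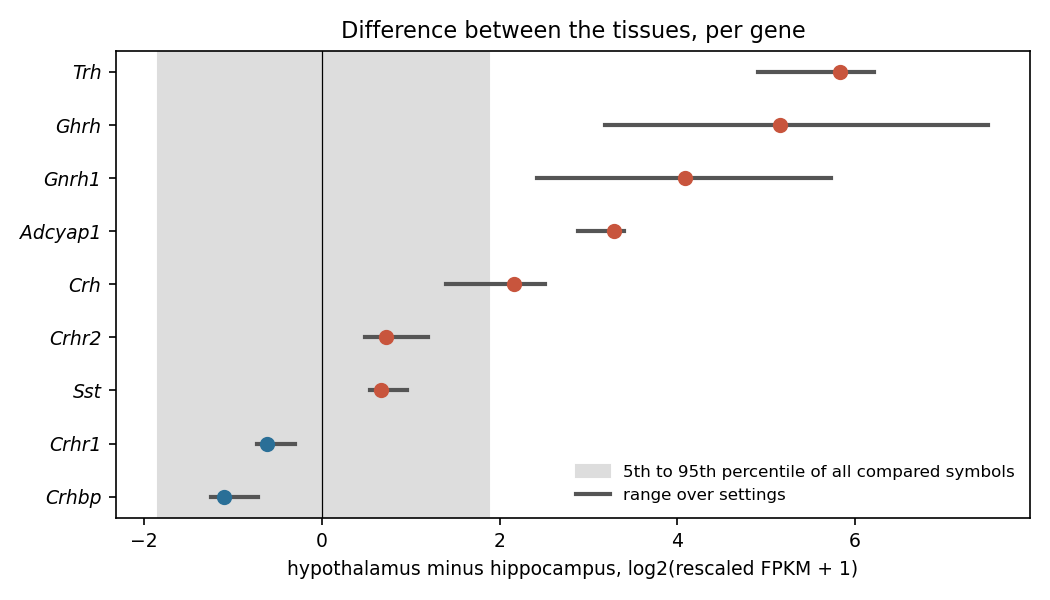
Difference between the tissues for 9 genes (Kiss1 is left out, since it is listed at 0 in hippocampus), as hypothalamus minus hippocampus on the log2(rescaled FPKM + 1) scale. Points are the reported values, and dark bars their range over the settings tried. The grey band runs from −1.85 to 1.88, the 5th and 95th percentiles of all compared symbols at a pseudocount of 1. The points of Trh, Ghrh, Gnrh1, Adcyap1 and Crh lie above the band. The range of Crh starts at 1.39, with a pseudocount of 5. The band was not computed for that setting, so this end cannot be set against it.

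Plain ratios of FPKM within a library do not depend on how the tables were scaled. Log2 ratios of FPKM + 1 do depend on it for genes near 1 FPKM, such as Crh in hippocampus. A value particular to a locus in its table still enters both kinds of ratio, so tissue and table cannot be told apart here either. Gapdh, for example, read 4.03 to 8.73 FPKM in hippocampus and 418 to 787 FPKM in hypothalamus. Actb read 1450 to 1583 and 1290 to 1663 FPKM. In every hippocampus library Crhbp exceeded Crh, by 7.26, 9.07, 7.63 and 3.52 times, and in every hypothalamus library it lay below Crh, at 0.321, 0.759 and 0.439 times. As log2 ratios of FPKM + 1 these were 1.81 ± 0.41 (SD, n = 4) and −0.87 ± 0.51 (SD, n = 3), and the tissues did not overlap. Crhr1 to Crh behaved likewise, at 1.36 ± 0.19 in hippocampus (SD, n = 4) and −0.90 ± 0.38 in hypothalamus (SD, n = 3). With a pseudocount of 0.1 the hippocampus ratios were 2.56 and 2.02, and those in hypothalamus were −1.05 and −1.08. Crhr1 to Crhr2 was 0.66 ± 0.43 against −0.47 ± 0.57, with Crhr1 the higher receptor gene in all 4 hippocampus libraries and in hypothalamus replicate 1, and Crhr2 the higher in hypothalamus replicates 2 and 3, so that the lowest hippocampus ratio of 0.19 stood just above the highest hypothalamus ratio of 0.17.

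Trh and Crh, both products of paraventricular neurons, stood in FPKM ratios of 2.32, 1.57, 1.03 and 0.950 in the hippocampus libraries, a log2 ratio of FPKM + 1 of 0.24 ± 0.31 (SD, n = 4). In hypothalamus Trh was 10.6, 29.2 and 16.6 times Crh, a log2 ratio of 3.89 ± 0.65 (SD, n = 3). Sst exceeded Crh by 149.9 to 351.9 times in hippocampus and by 57.2 to 93.1 times in hypothalamus, and Ghrh stood at 0.0192 to 0.111 times Sst in hypothalamus.

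**Figure D3:**
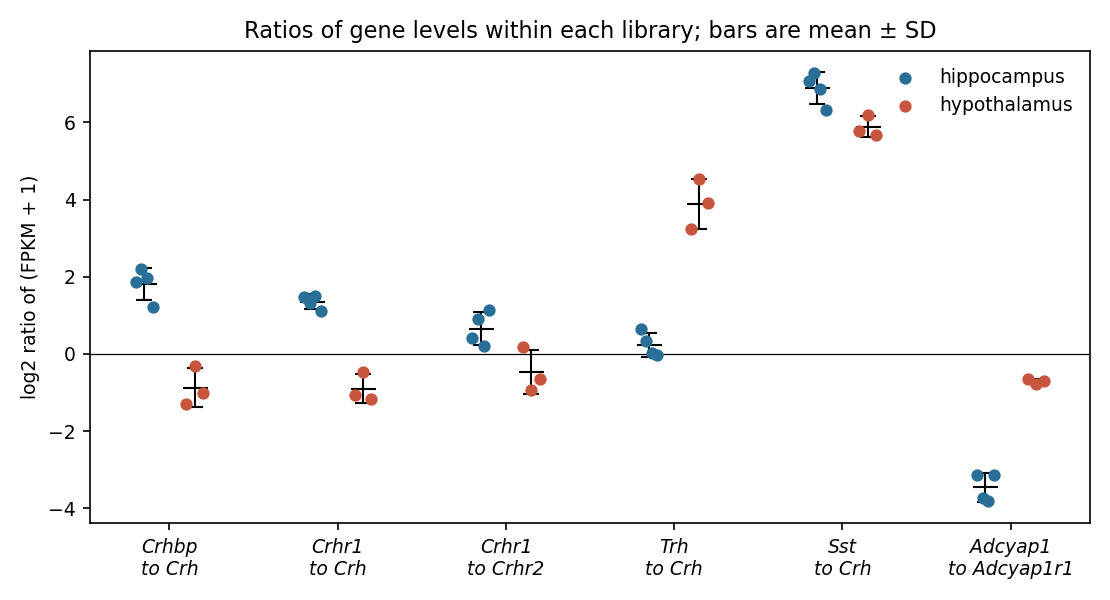
Log2 ratios of FPKM + 1 between pairs of genes in each library (points; 4 hippocampus, 3 hypothalamus), with mean ± SD. Crhbp to Crh and Crhr1 to Crh lie above 0 in hippocampus and below 0 in hypothalamus in every library, and Adcyap1 comes closest to its receptor gene Adcyap1r1 in hypothalamus.

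Within each tissue the genes fell into a few steps. In hypothalamus the means ran from Sst (432 FPKM) to Trh (109.8 FPKM), Adcyap1 (45.8 FPKM) and Ghrh (21.5 FPKM), and the first 4 were separated from each other in every library. From Ghrh downward, through Gnrh1, Kiss1, Crh, Crhr2, Crhbp and Crhr1, each gene overlapped its neighbour. In hippocampus Sst stood alone at 222 ± 46.3 FPKM (SD, n = 4), and Crhbp, at 5.60 ± 1.34 FPKM (SD, n = 4), came next. From Crhbp through Crhr1, Adcyap1, Crhr2, Trh and Crh each gene overlapped its neighbour. Crh in turn lay above Gnrh1, Ghrh and Kiss1 in every library. Leaving out hypothalamus replicate 2 moved 4 of the 10 places in that tissue, and leaving out its replicate 3 or hippocampus replicate 3 moved 2.

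The 3 hypothalamus libraries were not alike in these genes. In FPKM as deposited, replicate 1 was the lowest for Trh, Ghrh, Kiss1, Crhbp and Crhr2, replicate 2 for Gnrh1, Sst, Adcyap1, Crh and Crhr1, and replicate 3 for none, while replicate 3 was the highest for 8 of the 10, or for 6 of the 10 after rescaling. Among the 12 hypothalamic markers, replicate 1 was lowest for 7, among them Nr5a1, a factor of the ventromedial nucleus (2.09, 6.37 and 6.58 FPKM), and Agrp, an arcuate peptide gene (8.27, 10.4 and 21.7 FPKM). It was the highest for 5, among them Pmch and Hcrt, and for 4 of the 6 thalamic markers, such as Tcf7l2 (17.0, 9.03 and 9.43 FPKM). Of the 7 pituitary markers, 4 reached a mean of 1 FPKM in hypothalamus and none did in hippocampus. The summed level of the 7 was 102, 325 and 225 FPKM in replicates 1 to 3 against at most 1.37 FPKM in hippocampus, with Prl listed at 0 in all libraries. All 5 immediate early genes that reached a mean of 1 FPKM in hypothalamus were lowest in replicate 1. The part of these in the values of the 10 genes was not tested.

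**Figure D4:**
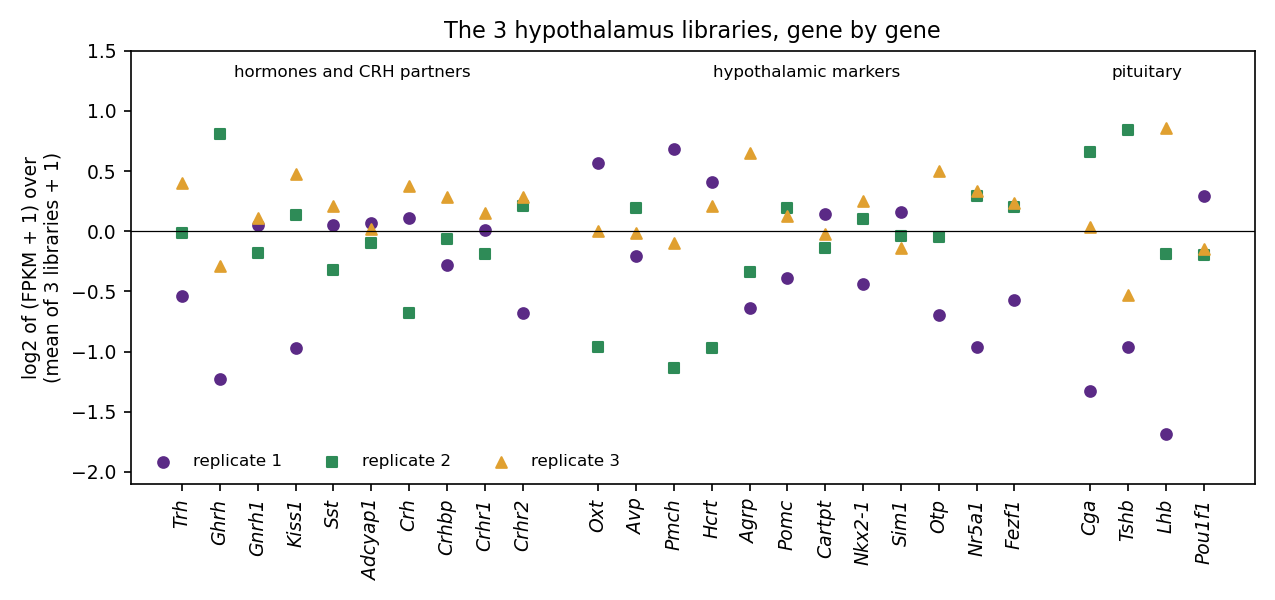
Level of each gene in the 3 hypothalamus libraries, as log2 of (FPKM + 1) over (mean of the 3 libraries + 1), for the 10 genes, 12 hypothalamic markers and the 4 pituitary markers that reached a mean of 1 FPKM. Replicate 1 (circles) lies low for Ghrh, Kiss1, Nr5a1, Cga and Lhb, and replicate 2 (squares) lies low for Crh, Oxt, Pmch and Hcrt.

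The genes around these hormones were taken from lists of receptors, co-peptides, degrading and processing enzymes, hormone receptors and transcription factors, 64 genes in all, of which 52 were compared. Of these, 20 were called higher in hypothalamus and 11 in hippocampus, 12 were separated by under 2-fold and 9 overlapped. Of all compared symbols, 13.4% and 14.5% were called in these directions and 52.6% were separated in either. Of the 52, 14 passed the filter in hypothalamus only and 2 in hippocampus only, and 6 of the 64 were also on a marker list. Over all compared symbols the median was −0.05. With FPKM as deposited Dio2, Thra, Hsd11b1, Sstr1 and Pcsk2 lost their call in hippocampus and Gsx1 its call in hypothalamus. Vipr2, Gsx1, Dio2, Thra and Hsd11b1 lost their calls with upper-quartile and median-of-ratios scaling, and Pdyn and Thra when loci were summed. A pseudocount of 5 ended the calls of Avpr1a, Esr1, Igf1, Sim1, Cort, Pdyn, Vipr2, Gsx1, Dio2, Thra and Hsd11b1.

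On the CRH list, 4 of 8 compared genes were called higher in hypothalamus (Ucn3, Pomc, Avp and Avpr1a), beside 13.4% of compared symbols. In hippocampus 2 were called higher (Nr3c2 and, narrowly at −1.04, Hsd11b1), beside 14.5% of compared symbols. The median difference was 0.73, and 3 of the 8 passed the filter in hypothalamus only. Ucn3, a urocortin that acts on Crhr2, read 6.97, 2.14 and 8.82 FPKM in hypothalamus, and in hippocampus 0.0923 FPKM in replicate 1 and 0 in the others. Ucn and Ucn2 stayed under 1 FPKM in all libraries. The steroid receptors that carry feedback to Crh differed from each other: the mineralocorticoid receptor gene Nr3c2 read 25.6 to 31.7 FPKM in hippocampus and 4.22 to 6.14 FPKM in hypothalamus, a difference of −2.65, at a symbol with 2 loci in each table. The call of Hsd11b1, an enzyme gene that regenerates active glucocorticoid, was lost with FPKM as deposited, at −0.72, and without hypothalamus replicate 3. The glucocorticoid receptor gene Nr3c1 overlapped, at 12.9 ± 3.11 and 14.0 ± 2.17 FPKM.

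On the TRH list the median difference was −0.31, and none of 8 compared genes was called higher in hypothalamus, beside 13.4% of compared symbols. Called higher in hippocampus, beside 14.5%, were 2 (Dio2, which activates thyroid hormone, and Thra, a thyroid hormone receptor). Both calls were narrow, at −1.05 and −1.01, and were lost with FPKM as deposited, at −0.71 each, and with some single libraries left out: hippocampus replicate 4 or hypothalamus replicate 1 or 3 for Dio2, and replicate 1 or 2 of either tissue for Thra. Trhr, the pituitary-type receptor for the hormone, read 3.24 to 4.27 FPKM in hypothalamus and 1.25 to 2.77 FPKM in hippocampus, and overlapped after rescaling. Trhde, the ectoenzyme that degrades the hormone, read 2.58 to 3.56 FPKM in hypothalamus and 3.60 to 7.08 FPKM in hippocampus. The large difference of Trh thus had no counterpart of like size on this list.

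On the growth hormone list 1 of 8 compared genes was called higher in hypothalamus (Igf1) and 3 in hippocampus (Sstr1, Sstr4 and Cort). Of all compared symbols, 13.4% and 14.5% were called in these directions. The median of the list was −0.58. The somatostatin receptor gene Sstr4 read 9.06 to 9.88 FPKM in hippocampus and 0.888 to 1.35 FPKM in hypothalamus, a difference of −2.96. Sstr1 read 14.9 ± 1.70 FPKM (SD, n = 4) against 7.31 ± 0.648 FPKM (SD, n = 3), and Sstr2 overlapped. Cort, which encodes the somatostatin-like peptide cortistatin, was also higher in hippocampus, at 1.48 to 3.10 against 0.175 to 0.621 FPKM, but it passed the filter in hippocampus only. Ghrhr, the receptor for growth hormone-releasing hormone, was at most 0.0674 FPKM in any library.

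On the gonadal list 6 of 9 compared genes were called higher in hypothalamus and none in hippocampus, beside 13.4% and 14.5% of compared symbols. The median was 1.57, and 3 of the 9 passed the filter in hypothalamus only. The kisspeptin receptor gene Kiss1r read 9.26, 7.17 and 13.6 FPKM in hypothalamus and 1.34 to 1.92 FPKM in hippocampus, a difference of 2.14. Tac3, the neurokinin B gene expressed with Kiss1 in arcuate neurons and listed under its older symbol, read 169, 91.8 and 188 FPKM against 24.3 to 29.5 FPKM, and Pdyn, the third peptide of those neurons, read 36.7 to 50.2 against 10.3 to 26.5 FPKM, a call lost without hippocampus replicate 4 or hypothalamus replicate 3. Npvf, which encodes the gonadotropin-inhibitory peptide, read 26.4, 73.5 and 88.6 FPKM in hypothalamus and was listed at 0 in 3 hippocampus libraries and at 0.0837 FPKM in the other. Esr1, the estrogen receptor of this feedback loop, read 1.64 to 2.05 against 0.236 to 0.306 FPKM. Gnrhr stayed under 1 FPKM throughout.

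The median of the PACAP list was −0.23. Of its 4 genes, 1 was called in each direction, Vipr2 in hypothalamus and Vipr1 in hippocampus, beside 13.4% and 14.5% of compared symbols. Both had passed the filter only in the tissue where they were higher. On the precursor processing list, 3 of 5 compared genes were called higher in hippocampus and none in hypothalamus, beside 14.5% and 13.4% of compared symbols. The median was −1.18. Called in hippocampus were the enzyme genes Pcsk2 and Cpe, and Pcsk1n, which encodes an inhibitor of the convertase Pcsk1. Scg5, which encodes a chaperone of Pcsk2, overlapped. Pcsk1n read 156, 117, 26.3 and 23.9 FPKM in hippocampus and 8.66, 7.70 and 18.6 FPKM in hypothalamus, where the symbol had 2 loci. The call of Pcsk2 was lost with FPKM as deposited. Pam, which amidates peptides such as thyrotropin-releasing and gonadotropin-releasing hormone, was separated in the other direction by under 2-fold, at 149.9 to 166.6 FPKM in hypothalamus and 62.3 to 87.1 FPKM in hippocampus. Of the transcription factors of neurosecretory neurons, 8 of 10 compared were called higher in hypothalamus and none in hippocampus, with a median of 1.80, or 1.51 without the 3 listed at 0 in hippocampus. Of these 10, 6 passed the filter in hypothalamus only and so could be higher only there, and 13.4% of all compared symbols were called in that direction. Otp, required for Crh and Trh neurons, read 9.36, 15.2 and 22.7 FPKM in hypothalamus and 0 in every hippocampus library. Gsx1, a factor for Ghrh neurons, read 0.471, 1.43 and 1.67 FPKM against at most 0.154 FPKM.

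**Figure D5:**
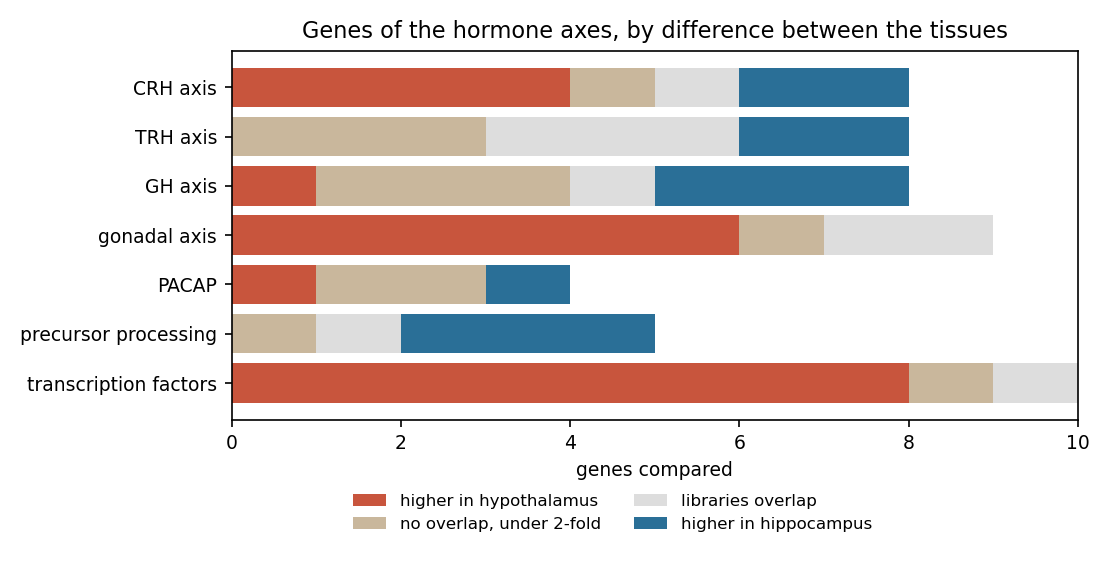
Number of compared genes on each of the 7 lists that were called higher in hypothalamus or in hippocampus, were separated by under 2-fold, or overlapped between the tissues. Calls in hypothalamus make up most of the gonadal (6 of 9) and transcription factor (8 of 10) bars, and the TRH (0 of 8) and precursor processing (0 of 5) bars hold none. Of all compared symbols, 13.4% were called in hypothalamus, so 0 among 8 or 5 genes is near that share.

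Profiles were compared over the 7 libraries by the root mean square difference of centred log2 values, where 0 means the same pattern. Among 6536 symbols with 1 locus per table and at least 5 FPKM in hypothalamus, the nearest to Kiss1 were Gabre, a GABA-A receptor subunit (0.16), and Nr5a1 (0.25). The nearest to Crh were Upk2 (0.16) and Ctxn2 (0.17), the nearest to Sst were Psmb7, a proteasome subunit, and Sdhb, a mitochondrial enzyme subunit (0.13 and 0.14), and the nearest to Adcyap1 were RGD1562284 (0.24) and Tmem186 (0.26). Trh lay nearest to Gapdh (0.33) and to Otp (0.41), Ghrh to Otp (0.54) and Ndufa12 (0.58), and Gnrh1 to Agt (0.35) and Cox6a2 (0.35). Among 6072 symbols at that level in hippocampus, Crhbp lay nearest to Zfp259 (0.09) and Lrrn2 (0.14). These patterns consist mainly of the step between the tissues, which is also a step between tables, and Gapdh, which every cell uses, was the nearest of all to Trh.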

How the data were processed

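The authors deposited FPKM in 1 table per tissue, each value with a status word. Per the submitters' processing notes, TopHat, TopHat2, Bowtie, Bowtie2, Cufflinks and Cuffdiff were used with build rn5; their roles, versions and strand setting are not given in the sources used here. Poly-A RNA went onto a HiSeq 2000, per the labels' protocols. Of 10773 locus numbers in both tables, 58 carried the same symbol, so the tables were treated as separate runs, joined by symbol, and not tested against each other. A locus whose status was not OK in every library was dropped (86 in hippocampus, 24 in hypothalamus), and the locus of highest mean stood for a symbol. Groups and replicate numbers came from the sample titles. FPKM carries no counts, so depth is unknown and no counting interval is given. A 2-sided exact test of 4 against 3 libraries could not go below 0.0571 in any case.

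Values were computed with pandas 2.3.3 in Python 3.11.15, and the calling rule was tested on simulated data. Named genes were the 10 members, genes of the lists and the 2 nearest profiles of each member with at least 5 FPKM. The members and lists were chosen with earlier results of these data known. Alternatives were other scalings, pseudocounts of 0.1 and 5, summed loci, other filters and left-out libraries. Protein sequences were not used here. The values of 1 list gene are not reported here.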

Additional observations from a re-analysis of the deposited data

Results flagged for a closer look

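Libraries of a tissue were compared by Dixon's ratio, the gap between the extreme library and its neighbour over the whole range, in the 4 hippocampus libraries. Of 54 results examined, 3 passed the 95% critical value for 4 samples. Chance passes about 1 group in 20, or 2.7 of 54. Crh was highest in replicate 4, at 1.14 FPKM against 0.731 to 0.798 FPKM in the others (ratio 0.835), a gap at a level close to 1 FPKM. Pomc was highest in replicate 1, at 5.07 FPKM against 0.192 to 0.734 FPKM (ratio 0.889). Pgpep1, an enzyme gene of the TRH list, was lowest in replicate 4, at 3.43 FPKM against 4.99 to 5.31 FPKM (ratio 0.8294). No such comparison was made in hypothalamus, which has 3 libraries.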

How the results depend on the processing

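The count of 6 genes higher in hypothalamus was 6 under every scaling, pseudocount and filter tried, 7 by rank within the library, and 6 to 7 when libraries were left out one at a time. The count of 1 gene higher in hippocampus (Crhbp) became 0 with FPKM as deposited, with upper-quartile and with median-of-ratios scaling, with a pseudocount of 5 and without replicate 1 of both tissues. It was 2 by rank within the library, an alternative chosen after seeing the data that asks for no overlap only, and 0 to 1 when libraries were left out in turn. No difference of the 9 genes with a computable one changed sign. Of the ratios under the alternatives, 4 values moved by more than the spread of the libraries, all in hippocampus with a pseudocount of 0.1. The 146 that did not are no measure of stability, since many of them could not move. Summing loci leaves genes with 1 locus unchanged, and leaving out a library of either tissue leaves the ratios of the other unchanged. Ratios were not recomputed with a pseudocount of 5. Among list genes, the 20 higher in hypothalamus became 13 with a pseudocount of 5 and 12 with a mean of at least 5 FPKM, and the 11 higher in hippocampus became 6 with FPKM as deposited, 7 with a pseudocount of 5 and 18 by rank. Leaving out 1 library at a time gave 18 to 21 and 10 to 12. Over all symbols, FPKM as deposited moved the median difference from −0.05 to 0.21 and the calls from 1439 in hypothalamus and 1560 in hippocampus to 1819 and 928, and rank gave 2783 and 2859. Leaving out 1 library at a time gave 1404 to 1633 and 1485 to 1816, and leaving out replicate 1 of both tissues 1709 and 1944. The fewer genes under a stricter filter follow from its construction, and for the other changes the cause was not tested. No paired analysis was possible because no result comes from a test and no label ties replicate numbers to rats.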
